A study of Homo sapiens with 6 samples.

Results

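The genes described here encode the pore-forming alpha subunits of the voltage-gated sodium channels. They were SCN1A, SCN2A, SCN3A, SCN4A, SCN7A, SCN8A, SCN9A, SCN10A and SCN11A. The family was chosen by a measured value, because SCN7A was among the genes that rose when MTDH was depleted in endometrial cancer cells, and the difference of SCN7A is therefore given as a description without a test. Of the 9 genes, 8 had a row annotated with 1 gene symbol, out of 14232 genes tested in all. SCN1A shared its row with SCN2A. The 6 values of that row lay between 2.19 and 2.88 on the log2 scale, and they were assigned to neither gene.

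The cells were Ishikawa H, a cell line from a well differentiated endometrioid adenocarcinoma, and carried a p53 mutation given as G186T in both groups. The 3 knockdown arrays came from cells that stably expressed a hairpin RNA (shRNA) that targets MTDH, or metadherin, which has been tied to drug resistance in cancer, and the 3 control arrays from MTDH control cells. The comparison asked which genes differed in expression once MTDH was reduced. Puromycin-resistant single clones had been expanded, and nothing in the labels says that the replicates of a group stem from different clones, so the p-values cover no more than the spread among these arrays, which may be technical. In bulk RNA of this kind, fewer cells with a transcript and less of it per cell cannot be told apart.

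A sodium channel alpha subunit is 1 long protein that folds into a pore, senses the membrane voltage and lets sodium into the cell for a brief moment. These channels start and carry the action potential in neurons and muscle. Sodium channel transcripts have also been found in carcinoma lines, which do not fire action potentials. SCN7A is the odd member of the family. Its product, Nax, is known from mouse brain as a sensor of the extracellular sodium level in glia rather than as a voltage-gated channel. SCN1A, SCN2A, SCN3A and SCN8A are the channels of central neurons, SCN4A is the channel of skeletal muscle, and SCN9A, SCN10A and SCN11A are best known from sensory neurons. The beta subunits are small membrane proteins that modify gating and transport of the alpha subunits to the cell surface.

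The promoters of the family differ in sequence. RefSeq (GRCh38.p14) gave start sites for 7 of the 9 genes, with 11 windows in all that run from 250 bases before to 50 bases after the start. SCN3A and SCN4A had no entry. Shown here are both windows of SCN7A, the member with the largest difference, and the window of SCN9A, the family member next to it in gene order on chromosome 2 and read from the same strand. CpG dinucleotides, the sites of most DNA methylation, are in capitals, and all other bases are in lower case.

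SCN7A, chr2:166494200-166494499, minus strand: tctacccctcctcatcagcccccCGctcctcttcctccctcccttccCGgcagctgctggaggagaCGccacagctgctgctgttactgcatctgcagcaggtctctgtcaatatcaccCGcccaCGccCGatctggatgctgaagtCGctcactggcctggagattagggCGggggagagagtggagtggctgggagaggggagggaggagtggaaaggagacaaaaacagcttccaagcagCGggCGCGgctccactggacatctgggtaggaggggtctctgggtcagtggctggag

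SCN7A, chr2:166486922-166487221, minus strand: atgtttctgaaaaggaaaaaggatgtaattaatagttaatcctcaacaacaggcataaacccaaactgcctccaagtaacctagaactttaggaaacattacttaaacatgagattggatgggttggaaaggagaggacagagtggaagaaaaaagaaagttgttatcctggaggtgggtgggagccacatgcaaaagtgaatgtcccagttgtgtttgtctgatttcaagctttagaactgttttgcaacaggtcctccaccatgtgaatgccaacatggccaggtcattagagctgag

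SCN9A, chr2:166375895-166376194, minus strand: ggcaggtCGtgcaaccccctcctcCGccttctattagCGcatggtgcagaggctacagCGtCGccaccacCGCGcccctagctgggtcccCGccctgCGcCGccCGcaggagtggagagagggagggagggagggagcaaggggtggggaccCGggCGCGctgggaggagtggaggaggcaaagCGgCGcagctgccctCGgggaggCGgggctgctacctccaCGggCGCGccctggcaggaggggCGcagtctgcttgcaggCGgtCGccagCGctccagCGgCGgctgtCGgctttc

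The upstream window of SCN7A held 11 CpG and 62.7% G or C, and the downstream window held 0 CpG and 41.3% G or C. The SCN9A window held 28 CpG and 73.3% G or C. Over all 35116 RefSeq windows of this length the median was 14 CpG, so that 1 start site of SCN7A lay near the median and the other had no CpG at all. SCN8A had the most CpG of the family at 52. SCN11A had 23 in one window and 2 in the other, SCN10A had 3, SCN1A had 3 and 2, and SCN2A had 2 and 1. The letters GGGCGG of a GC box, searched on both strands, were present in 4 of the 11 windows and in 45.0% of all windows. The 4 were the upstream window of SCN7A, 1 window of SCN11A and those of SCN8A and SCN9A. TATAAA was present in 2 windows, of SCN10A and SCN2A, and in 11.5% of all. The parts TTCAGCACC and GGACAGCGC of the element bound by REST, the repressor known for silencing sodium channel genes outside neurons, were in none of the 11 windows and in 0.376% and 0.581% of all. Which start site the arrays measured was not analysed here.

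Each array gave 1 log2 expression value per row. Control replicate 3 stood apart from the other arrays. Its correlations with them across genes ran from 0.900 to 0.955, whereas those among the other 5 arrays ran from 0.959 to 0.980, and genes are not independent replicates. It was the highest of the 6 arrays in 43.4% of all genes and in 5 of the 8 sodium channel genes (SCN3A, SCN4A, SCN8A, SCN10A and SCN11A). Its part in the results was not tested. For genes whose difference is printed, the difference without it is given where it moved by over 1.5 times. Of the chromosomal neighbours, this was done only for TTC21B and XIRP2. MTDH had a mean log2 difference of -1.02 between knockdown and control arrays (limma, adjusted p = 0.029), with no overlap between the groups, a call that was lost without control replicate 1 (adjusted p = 0.16) or any 1 knockdown array (0.15, 0.12 and 0.11). Over all genes tested, 85 passed an adjusted p of 0.05, or 0.597%, with 53 higher and 32 lower in the knockdown arrays (35 and 34 after quantile normalization, 22 and 19 after centring), and the median log2 difference was -0.08.

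All 3 knockdown arrays had more SCN7A than any control. The gene measured 2.23, 2.34 and 2.37 on the control arrays and 3.82, 4.09 and 3.57 on the knockdown arrays. The group means were 2.31 ± 0.08 (SD, n = 3) and 3.82 ± 0.26 (SD, n = 3). The difference of the means was 1.51 on the log2 scale, or 2.85-fold. The 3 controls lay close together, while the knockdown arrays spread more widely, with replicate 2 highest and replicate 3 lowest. Each knockdown array exceeded the control mean by 1.51, 1.77 and 1.25 on the log2 scale. Leaving out any 1 array moved the difference to between 1.38 and 1.64, and it was 1.54 without control replicate 3. Of all genes tested, 7 had a larger log2 difference. Among the 1157 genes with a control mean of at most 3, none other reached the difference of SCN7A, and the next was 1.45. SCN7A was chosen for its rise, so nothing is read from these ranks.

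**Figure D1:**
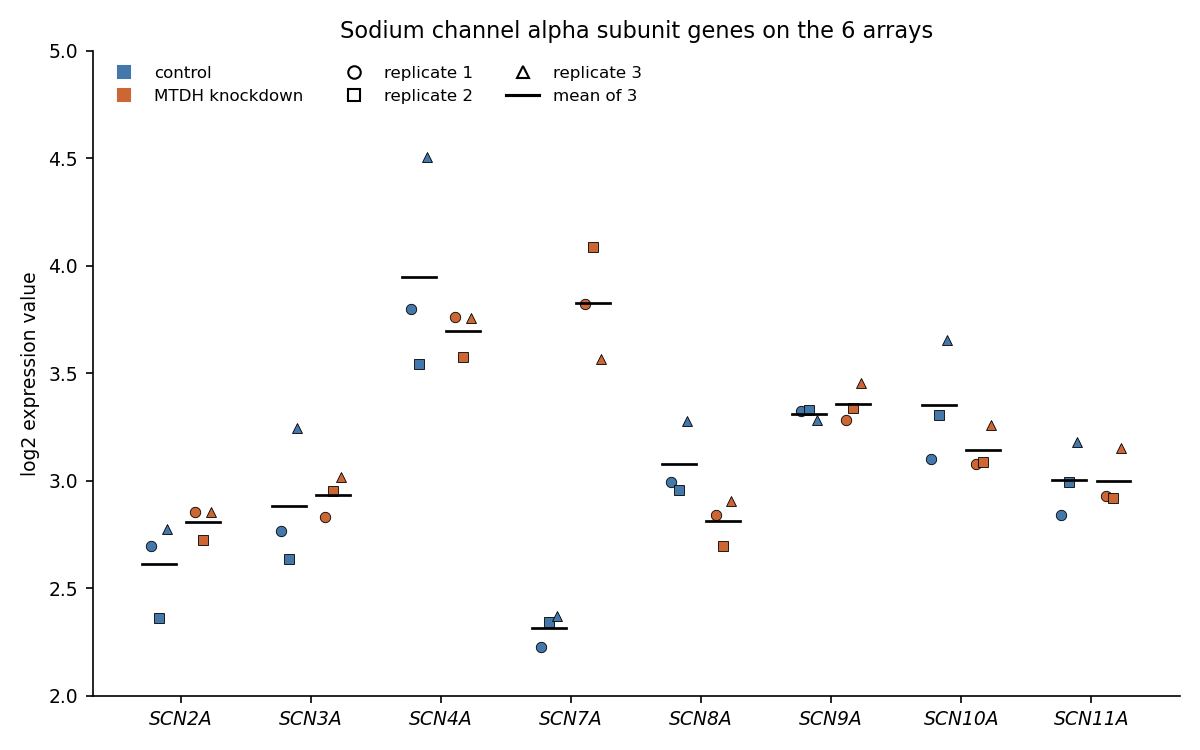
Log2 expression value of the 8 measured sodium channel alpha subunit genes on each of the 6 arrays. Points are single arrays, blue for control and orange for MTDH knockdown, with a symbol for each replicate number, and bars are the means of 3. The knockdown points of SCN7A lie between 3.57 and 4.09 and its control points between 2.23 and 2.37, whereas the groups of every other gene except SCN8A overlap.

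All 8 genes were dim. The lower quartile of an array's genes lay between 3.71 and 4.06, and the mean of each of the 8 genes over the 6 arrays lay below 4.06, the level that the lowest 30% of genes did not exceed. As a yardstick, 220 olfactory receptor genes, receptors of the nasal epithelium, had control means with quartiles of 2.59, 3.16 and 3.81 and knockdown means with quartiles of 2.53, 3.01 and 3.52. The control mean of SCN7A lay below the lower quartile of these genes, and its knockdown mean lay above their upper quartile. The log2 differences of the olfactory receptors ran from -1.40 to 0.96, and since SCN7A was chosen for its rise, nothing is read from its place above them. None of the 220 passed at an adjusted p of 0.05 (limma), and 24 had an unadjusted p under 0.05, a threshold passed by 14.1% of all genes. No detection values were used, and whether any of the 8 channels was above background was not tested, the control level of SCN7A included.

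**Figure D2:**
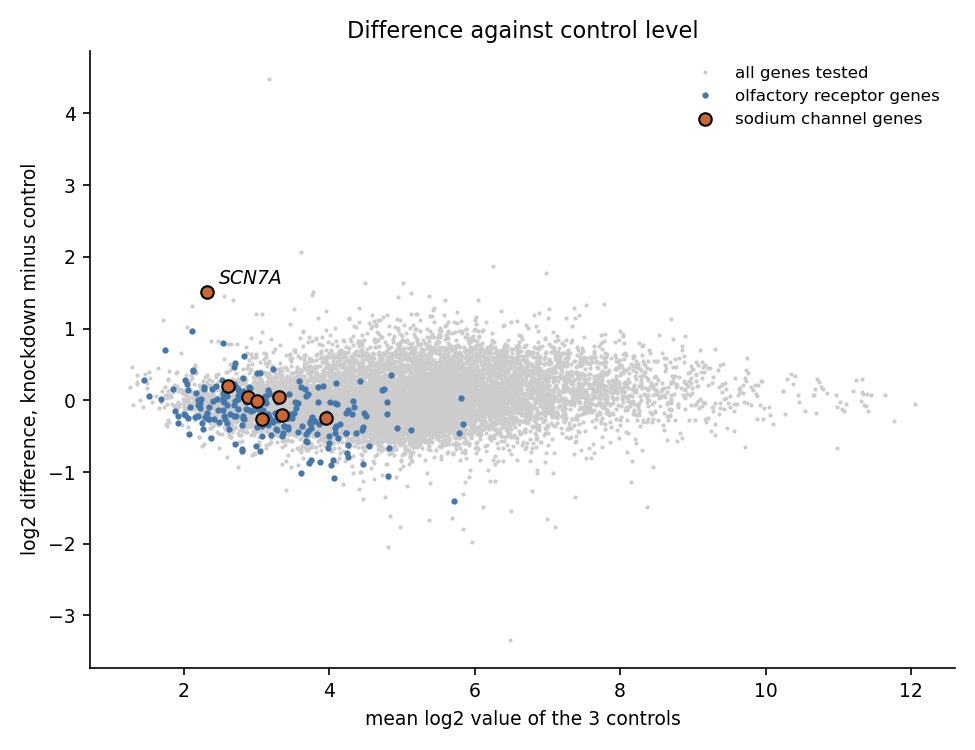
Difference between knockdown and control means (vertical axis, log2) against the mean log2 value of the 3 controls (horizontal axis) for all 14232 genes tested in grey, 220 olfactory receptor genes in blue and the 8 sodium channel genes in orange. The 7 other sodium channel genes lie between -0.26 and 0.20 among the olfactory receptors, and SCN7A lies at 1.51.

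SCN7A was the 1 gene of the 8 that passed an adjusted p of 0.05 (0.597% of all genes passed), and since this contrast led to the choice of the family nothing is read from that count, which was 0 without control replicate 1. None of the other 7 passed in the limma fit, and 0 of them had an unadjusted p under 0.05. Their log2 differences ran from -0.26 to 0.20, with a median of -0.01 beside -0.08 over all genes tested. Of the 8 genes, 2 had groups that did not overlap, SCN7A and SCN8A, beside 20.0% of all genes tested.

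Among the channels of central neurons, SCN8A, which sits at the start of the axon and at the nodes of Ranvier, had the lower values in the knockdown arrays. It measured 2.99, 2.96 and 3.28 on the control arrays and 2.84, 2.69 and 2.90 on the knockdown arrays. The groups did not overlap, but the highest knockdown array lay close under the lowest control. This was a log2 difference of -0.26 with a 95% interval from -0.63 to 0.11 (limma, adjusted p = 0.47), and it was -0.16 without control replicate 3.

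SCN2A, the channel of early axons and excitatory neurons, measured 2.69, 2.36 and 2.78 on the control arrays and 2.85, 2.72 and 2.85 on the knockdown arrays. Control replicate 2 was the lowest of the 6, and the groups overlapped. A log2 difference of 0.20 was obtained, with a 95% interval from -0.18 to 0.58 (limma, adjusted p = 0.58), and it was 0.07 without control replicate 2.

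SCN3A, a channel mainly of the developing brain, measured 2.77, 2.64 and 3.25 on the control arrays and 2.83, 2.95 and 3.02 on the knockdown arrays. All 3 knockdown values lay within the range of the controls. The mean difference was 0.05 on the log2 scale with a 95% interval from -0.37 to 0.47 (limma, adjusted p = 0.90), and it was 0.23 without control replicate 3.

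SCN4A, the channel of skeletal muscle, varied most among the controls. It measured 3.80, 3.54 and 4.50 on the control arrays and 3.76, 3.57 and 3.76 on the knockdown arrays. The knockdown values lay between those of control replicates 1 and 2, and control replicate 3 lay far above. SCN4A had a log2 difference of -0.25 with a 95% interval from -0.77 to 0.27 (limma, adjusted p = 0.60), and it changed sign to 0.03 without that array.

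Of the channels of sensory neurons, SCN9A, known for its role in pain, varied least. It measured 3.33, 3.33 and 3.28 on the control arrays and 3.28, 3.34 and 3.46 on the knockdown arrays, a range of 0.17 over all 6. Its log2 difference was 0.05 with a 95% interval from -0.29 to 0.39 (limma, adjusted p = 0.89).

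SCN10A, a channel that resists tetrodotoxin, measured 3.10, 3.30 and 3.65 on the control arrays and 3.08, 3.09 and 3.26 on the knockdown arrays. The groups overlapped, with control replicate 3 highest. Knockdown minus control gave a log2 difference of -0.21 with a 95% interval from -0.62 to 0.20 (limma, adjusted p = 0.58), and it was -0.06 without control replicate 3. SCN11A, which carries a persistent current near the resting potential, measured 2.84, 2.99 and 3.18 on the control arrays and 2.93, 2.92 and 3.15 on the knockdown arrays. Its log2 difference was -0.01 with a 95% interval from -0.38 to 0.37 (limma, adjusted p = 0.99), and its sign turned under quantile normalization and centring and without control replicate 3, where it was 0.08. The highest upper bound of the 7 intervals was the 0.58 of SCN2A. SCN7A was chosen for its difference, so nothing is read from setting the intervals against it. These intervals are for single genes and do not test the difference between genes.

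**Figure D3:**
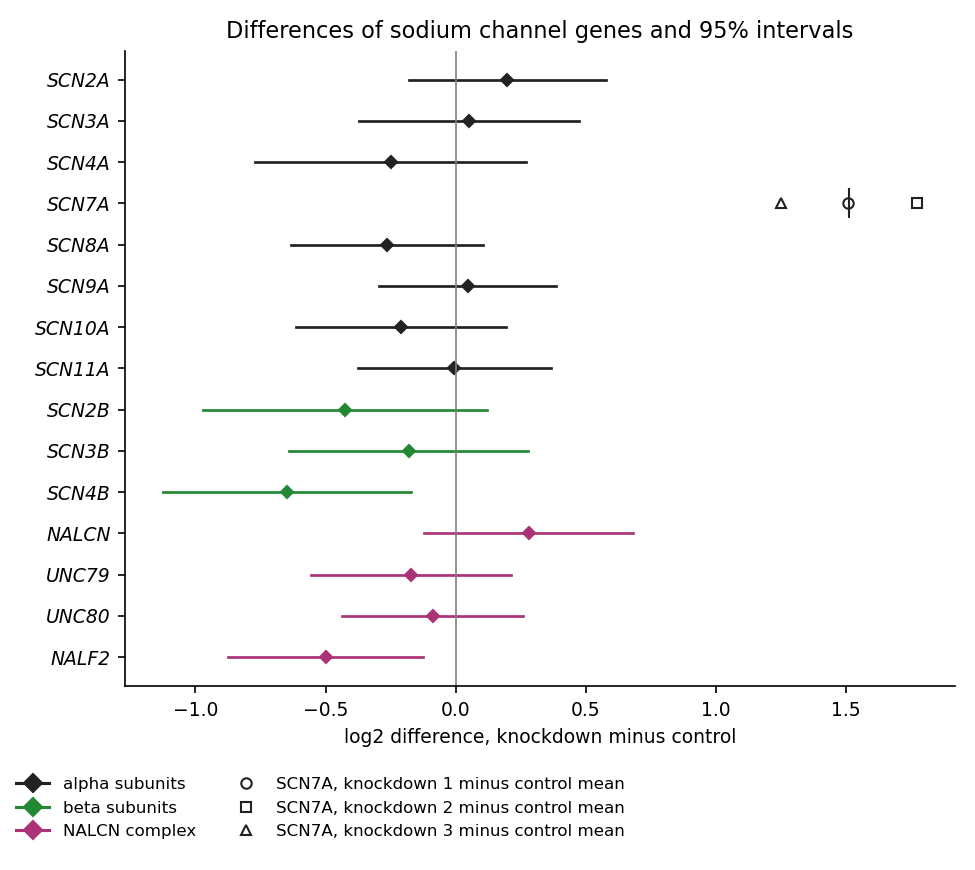
Log2 difference between the knockdown and control means (horizontal axis) for the sodium channel alpha subunits in black, the beta subunits in green and the NALCN complex in purple. Diamonds are the differences and lines their 95% intervals from limma, and SCN7A is shown by its 3 knockdown arrays minus the control mean with a tick at their mean and no interval. Of the 14 genes with an interval, SCN4B and NALF2 have one that lies wholly below 0, and neither passed after adjustment over all genes.

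The beta subunits measured were SCN2B, SCN3B and SCN4B. None of the 3 passed (limma), 1 had an unadjusted p under 0.05 beside 14.1% of all genes, and their median log2 difference was -0.43. All 3 were highest on control replicate 3. SCN4B, known to partner channels of neurons and muscle by a disulfide bond, measured 4.89, 4.73 and 5.50 on the control arrays and 4.28, 4.32 and 4.58 on the knockdown arrays, without overlap between the groups. Its log2 difference was -0.65 with a 95% interval from -1.12 to -0.17 (limma, adjusted p = 0.24, unadjusted p = 0.012), and it was -0.42 without control replicate 3.

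SCN2B, the other beta subunit bound by a disulfide, measured 4.01, 4.31 and 4.95 on the control arrays and 4.12, 3.68 and 4.19 on the knockdown arrays. The groups overlapped through control replicate 1. The log2 difference was -0.43 (limma, adjusted p = 0.44), and it was -0.16 without control replicate 3. SCN3B, which binds without a disulfide, had a log2 difference of -0.18 (limma, adjusted p = 0.67) and 0.01 without that array. So for each beta subunit the difference was smaller in size without control replicate 3.

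NALCN is a relative of the sodium channels that leaks sodium at rest and works with UNC79, UNC80 and an auxiliary protein such as NALF2. Of the 4 genes of this complex that were measured, none passed (limma), and 1, NALF2, had an unadjusted p under 0.05, beside 14.1% of all genes. NALCN measured 3.47, 3.22 and 3.74 on the control arrays and 3.89, 3.63 and 3.75 on the knockdown arrays, a log2 difference of 0.28 (limma, adjusted p = 0.48). NALF2 measured 5.06, 4.98 and 5.31 on the control arrays and 4.76, 4.49 and 4.60 on the knockdown arrays. Its groups did not overlap, with a log2 difference of -0.50 (limma, adjusted p = 0.25). The scaffolds UNC79 and UNC80 had log2 differences of -0.17 and -0.09, or -0.06 and -0.03 without control replicate 3.

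Proteins that bind or regulate sodium channels were measured for 13 of 21 genes listed, among them ankyrins, FGF homologous factors and the ubiquitin ligases NEDD4 and NEDD4L. None passed (limma), 2 had an unadjusted p under 0.05 (14.1% of all genes did), and the median log2 difference was -0.14. CNTN1, a surface protein that binds sodium channels and raises their number at the membrane, had the largest positive difference. It measured 4.06, 3.90 and 3.92 on the control arrays and 4.62, 4.92 and 4.46 on the knockdown arrays. The groups did not overlap and replicate 2 was again the highest knockdown array, with a log2 difference of 0.71 (limma, adjusted p = 0.13). S100A10, which carries SCN10A to the membrane in rodent sensory neurons, had the largest negative one at -0.65 (limma, adjusted p = 0.27), measuring 9.86, 10.09 and 9.21 on the control arrays and 8.83, 9.16 and 9.23 on the knockdown arrays.

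The repressor REST and its partners, which keep neuronal channel genes silent in other tissues, were measured for 9 of 11 genes listed. None passed (limma), 3 had an unadjusted p under 0.05 (14.1% of all genes did), and the median log2 difference was 0.31, with 6 genes above 0 and 3 below. The mean log2 value of the 9 genes was 5.79 to 6.31 on the control arrays and 6.25 to 6.32 on the knockdown arrays, so the groups overlapped. HDAC2, a histone deacetylase recruited by REST, measured 7.28, 7.51 and 6.85 on the control arrays and 7.83, 8.07 and 7.72 on the knockdown arrays, a log2 difference of 0.66 (limma, adjusted p = 0.22). SIN3A, a corepressor scaffold, had the largest negative difference at -0.42 (limma, adjusted p = 0.30).

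Voltage-gated calcium channels share the fold of the sodium channels, and all 10 alpha1 genes listed were measured. Of these, 1 fell and 0 rose, where 0.225% of all genes tested fell, and the median log2 difference was -0.23. The gene that fell was CACNA1C, the pore of the cardiac and smooth muscle L-type channel. It measured 4.70, 4.41 and 4.63 on the control arrays and 3.51, 3.57 and 3.83 on the knockdown arrays, so that the groups were clearly apart. The log2 difference was -0.94 (limma, adjusted p = 0.043). The gene has more than 1 row in the table, and the mean of its rows gave -0.51 (limma, adjusted p = 0.24). The call was also lost with all rows of the table, quantile normalization or centring (adjusted p = 0.12, 0.051 and 0.078) and without control replicate 1 or 3 or any 1 knockdown array, with adjusted p-values of 0.22, 0.063, 0.22, 0.21 and 0.087.

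Other genes of sodium and potassium transport did not pass in either direction, and their counts at an unadjusted p under 0.05 stand beside 14.1% of all genes. The 4 subunits of the epithelial sodium channel had log2 differences from -0.31 for SCNN1A to -0.11 for SCNN1G, with 0 at an unadjusted p under 0.05. Of the sodium pump, which exports the sodium that channels let in, 7 of 11 genes were measured, 2 with an unadjusted p under 0.05. All 7 were beta subunits or FXYD regulators, so no alpha subunit of the pump was covered. The differences ran from -0.79 for the regulator FXYD3 (limma, adjusted p = 0.15) to 0.54 for the beta subunit ATP1B3 (limma, adjusted p = 0.22). Of the exchangers and cotransporters, 7 of 9 were measured and 3 had an unadjusted p under 0.05. SLC4A7, a sodium bicarbonate cotransporter, measured 4.85, 5.24 and 4.36 on the control arrays and 5.74, 6.01 and 5.49 on the knockdown arrays, a log2 difference of 0.93 (limma, adjusted p = 0.14), and the sodium proton exchanger SLC9A3 had -0.50 (limma, adjusted p = 0.24). Potassium channels, which end the action potential, were measured for 15 of 19 genes, 1 with an unadjusted p under 0.05, and ran from -0.47 for KCNA5 to 0.06 for KCNJ11, which was at 0.28 without control replicate 3. Over the 13 lists other than the alpha subunits, 108 of 144 listed names were measured and 1 passed. The names of the NALCN list include synonyms, so the number of genes listed is smaller.

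**Figure D4:**
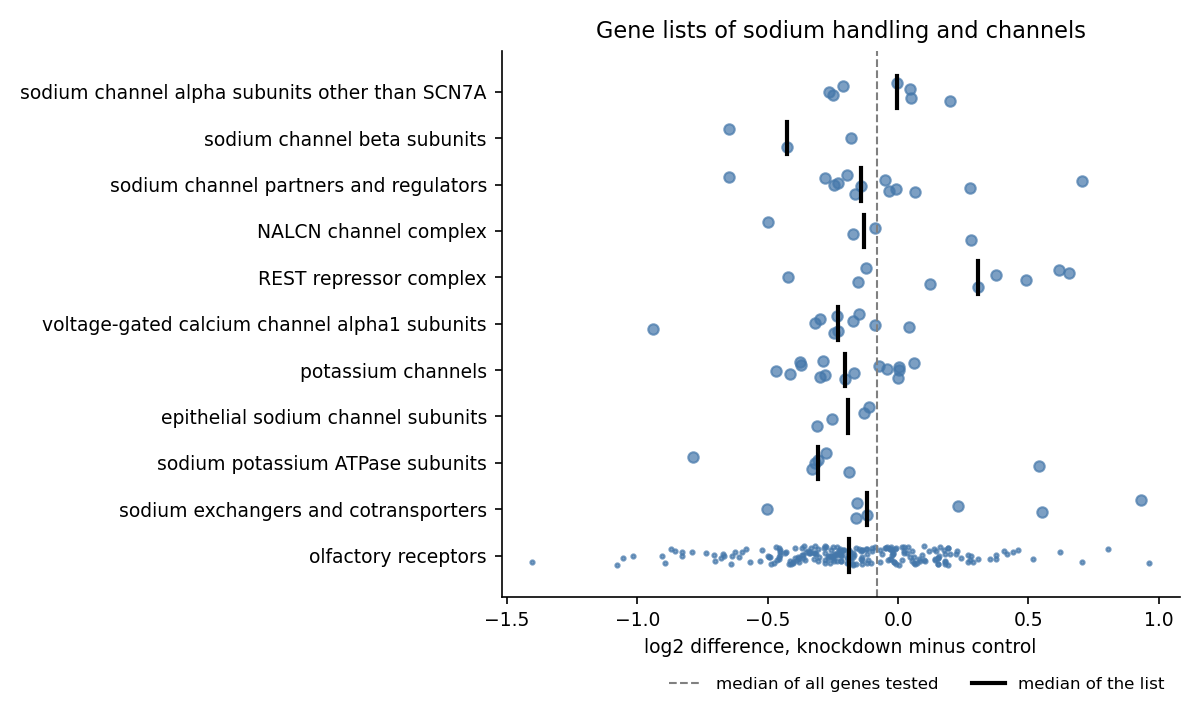
Log2 difference between knockdown and control means (horizontal axis) of each measured gene, by gene list. Points are genes, black bars the median of each list and the dashed line the median of all genes tested at -0.08. The list medians lie between -0.43 for the beta subunits and 0.31 for the REST complex, and the olfactory receptors show the spread among dim genes.

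SCN7A lies in a cluster of sodium channel genes on chromosome 2, so the measured genes around it were examined in RefSeq gene order. The order ran FIGN, GRB14, SLC38A11, SCN3A, SCN2A, CSRNP3, GALNT3, TTC21B, SCN9A, SCN7A, XIRP2, B3GALT1 and STK39. None of the 9 genes in this stretch that are not sodium channels passed (limma), with log2 differences from -0.22 to 0.38. TTC21B, a ciliary transport protein, had the 0.38 (limma, adjusted p = 0.49), and 0.13 without control replicate 3, where the 9 genes ran from -0.41 to 0.46. XIRP2, an actin-binding muscle protein and the next measured gene after SCN7A, had 0.05 (limma, adjusted p = 0.90) and 0.20 without that array, and SCN9A before it also had 0.05. SCN7A was chosen for its difference and its neighbours were not, so nothing is read from its distance to them. The chromosome 3 stretch with SCN10A and SCN11A (XYLB, ACVR2B and EXOG before, GORASP1, CSRNP1 and XIRP1 after) had 0 of 6 neighbours called, with differences from -0.25 to 0.30. These bounds too lean on control replicate 3. ACVR2B, at -0.25, measured 4.37, 4.41 and 4.79 on the control arrays, and XYLB, at 0.30, measured 5.19, 5.27 and 4.71. The pairs SLC4A8 and ANKRD33 beside SCN8A on chromosome 12 and CD79B and ICAM2 beside SCN4A on chromosome 17 lay between -0.25 and -0.12, with 0 called. Each of these genes was highest on control replicate 3. CD79B, for example, measured 4.12, 3.83 and 4.89 on the control arrays and 4.10, 4.19 and 4.20 on the knockdown arrays. So the negative differences of these pairs lean on that array.

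**Figure D5:**
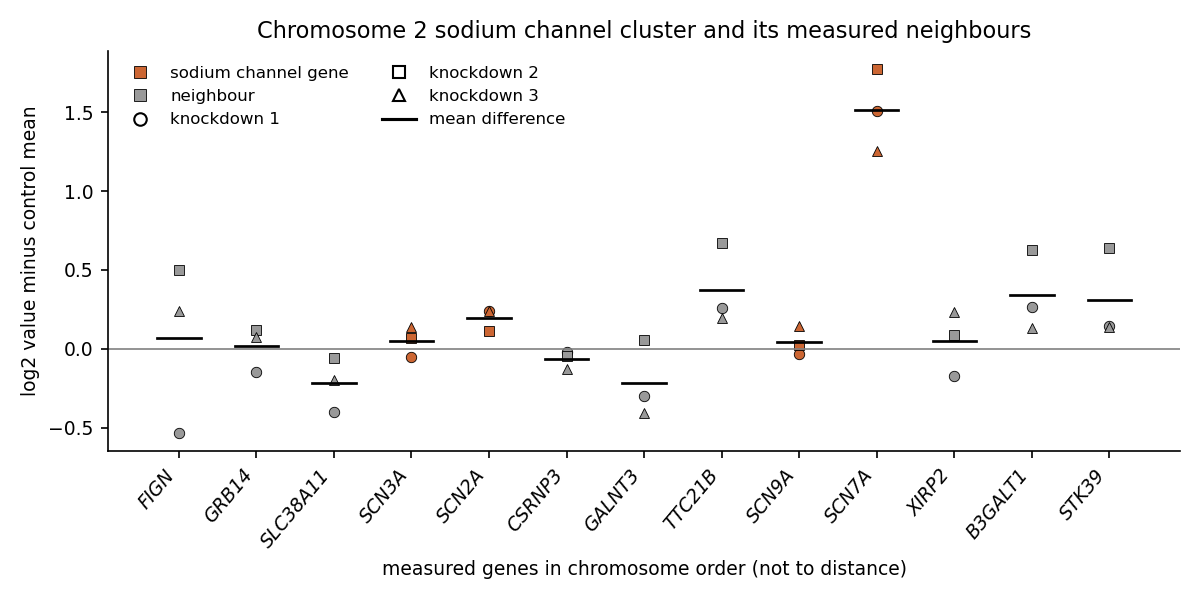
Log2 value of each knockdown array minus the mean of the 3 controls (vertical axis) for measured genes of the sodium channel cluster on chromosome 2 and those around it, in gene order and not to distance (horizontal axis). Symbols are the 3 knockdown arrays, orange for sodium channel genes and grey for the others, and bars are mean differences. The 3 points of SCN7A lie between 1.25 and 1.77, and no other gene's mean difference exceeds 0.38.

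The genes most like SCN7A over the 6 arrays were found by the root mean square distance between values centred on each gene's mean, which takes in the difference that led to the choice of SCN7A, so they are described without a test. The 5 nearest were FNTA at 0.18, ACBD7 and CACNA2D1 at 0.19, and POLB and RNF139 at 0.20. FNTA, POLB and RNF139 lie on chromosome 8, ACBD7 on chromosome 10 and CACNA2D1 on chromosome 7. Whether position plays a part was not tested. CACNA2D1 encodes the alpha2delta subunit that carries voltage-gated calcium channels to the membrane. It measured 3.06, 3.23 and 2.94 on the control arrays and 4.19, 4.54 and 4.12 on the knockdown arrays, with a log2 difference of 1.20 and, as for SCN7A, replicate 2 highest and replicate 3 lowest. FNTA, the alpha subunit of farnesyltransferase, had a log2 difference of 1.26, ACBD7, an acyl-CoA binding protein, had 1.20, POLB, a repair polymerase, had 1.39, and RNF139, a ubiquitin ligase of the endoplasmic reticulum, had 1.12. In all 5 genes knockdown replicate 2 was the highest of the 6 arrays. Nothing is read from this, because the 5 were picked for values near those of SCN7A on the same arrays. Of the other sodium channels, SCN2A was the nearest at a distance of 0.70, and 2979 of the 14232 genes tested were nearer to SCN7A. Nothing is read from this distance, because it takes in the rise that SCN7A was chosen for.

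No marker list of the cells known for these channels had a member that passed. None of the 11 measured neuron markers, 6 markers of glia and Schwann cells and 7 markers of skeletal and cardiac muscle passed (limma), with 1, 1 and 0 at an unadjusted p under 0.05, as had 14.1% of all genes. The mean log2 value of the neuron markers was 3.79 to 4.16 on the control arrays and 3.80 to 3.89 in the knockdown arrays. For the glial markers it was 4.32 to 4.87 and 3.91 to 4.47, and for the muscle markers 4.40 to 4.91 and 4.36 to 4.47. No marker is at 0 on this scale. SYT1, the calcium sensor of synaptic vesicles, had the largest negative difference of the neuron list at -0.57 (limma, adjusted p = 0.21), and the neurofilament NEFH the largest positive one at 0.14. In the glial list the differences of NGFR, a neurotrophin receptor, and MBP, a myelin protein, bounded the range at -0.07 and -0.59, and in the muscle list those of the transcription factors MYOG and MYOD1 at 0.03 and -0.39. Without control replicate 3 these differences were 0.22 for NEFH, 0.10 for NGFR, -0.35 for MBP, 0.20 for MYOG and -0.13 for MYOD1.

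Markers of endometrial epithelium were set beside the label of the cells. No other line was measured here, so they cannot tell Ishikawa H from another endometrial line. Of 13 listed, 12 were measured and none passed (limma), with 2 at an unadjusted p under 0.05, beside 14.1% of all genes. Their mean log2 value was 5.85 to 5.89 on the control arrays and 5.62 to 5.84 in the knockdown arrays. The control means ran from 2.91 to 8.65, beside array medians of 4.59 to 4.86. EPCAM, KRT8 and PAX8 had 7.26, 8.65 and 7.22, above the medians, while KRT7 had 4.31, below them. The hormone receptors ESR1 and PGR had control means of 3.63 and 2.91, below the lower quartile of every array, so that these defining markers of hormone-responsive endometrium were dim. EPCAM had a log2 difference of 0.36 (limma, adjusted p = 0.43), or 0.17 without control replicate 3. The 2 at an unadjusted p under 0.05 were KRT19, a keratin of simple epithelia, at -0.87 (limma, adjusted p = 0.084), and KRT8 at -0.55 (limma, adjusted p = 0.22).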

How the data were processed

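Amplified and biotin-labelled RNA of 3 MTDH control and 3 MTDH knockdown samples was read on Affymetrix whole-transcript arrays. A gene array is named in the methods of the study, whereas the row identifiers matched the annotation of an exon array, which was used to name genes. The authors deposited log2 expression values made with Partek Genomics Suite, with version, background correction and normalization not given in the sources used here. Of 22011 rows, those annotated with 1 gene symbol were used, and for a gene with several rows the one with the highest mean, which left 14232 genes. The groups were compared in R 4.3.3 with limma 3.58.1 and Benjamini-Hochberg adjustment over these genes and calls at an adjusted p under 0.05. Differences are knockdown minus control on the log2 scale, and changes of dim genes can be understated. The number of arrays limits the precision. The fit was tested on simulated data.

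The members and lists were chosen with earlier results of these data known. Genes named were the members, all measured beta subunits and NALCN complex genes, the genes called of each other list or otherwise its largest rise and fall, chromosomal neighbours, the 5 nearest to SCN7A and MTDH. Endometrial markers beyond these were named to set beside the cell label, after their values were seen. Alternatives were other row rules, leaving out the dimmest 30% of genes, quantile normalization, centring, an intensity trend with robust prior, array weights, the replicate number as a block and leaving out each array.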

Additional observations from a re-analysis of the deposited data

How the results depend on the processing

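The log2 difference of SCN7A lay between 1.38 and 1.64 under every alternative that gave a value. Leaving out the dimmest 30% of genes removed all 8 sodium channel genes and gave no value for them. The count of 85 genes called moved to 19 with all rows of the table, 41 with centring on the median and 757 with array weights, and to between 12 and 233 when 1 array was left out (12 with control replicate 1 left out, 233 with control replicate 2 left out and 20, 22 and 20 with the knockdown arrays left out in turn). The default estimate of array weights did not converge. It gave 1 array a weight of 17.1 and 3766 calls, and was replaced, after seeing this, by the gene by gene estimate. The sodium channel genes called numbered 0 without control replicate 1 and otherwise 1, a range of 0 to 1, and those without overlap between the groups 3 to 4 when 1 array was left out, 4 of them without control replicate 3, where 26.9% of all genes did not overlap. With fewer arrays that share rises for all genes, to between 24.4% and 42.6%. The count of 1 list gene called became 0 with the mean of all rows, all rows, quantile normalization and centring, 10 with array weights, and 0 to 2 when 1 array was left out.

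The replicate numbers were not shown to pair the samples, since the deviations of same-numbered arrays correlated at -0.10, 0.47 and 0.31. With the number as a block (replicate block), 364 genes, 1 sodium channel gene and 3 list genes were called, SLC4A7 (adjusted p = 0.023) and KRT19 (adjusted p = 0.038) among them. SLC4A7 also passed without control replicate 2 (adjusted p = 0.035), and with array weights CNTN1, S100A10, HDAC2, SIN3A, FXYD3, SLC4A7, SYT1 and KRT19 passed, in the same direction as before.

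Signs turned for the following genes, none of which passed in the comparison as reported. Of the chromosomal neighbours only TTC21B and XIRP2 were followed here. The other neighbours, some of which also turned without control replicate 3, are not listed. SCN11A was at 0.063 with quantile normalization, 0.076 with centring and 0.10 with array weights, and NGFR at 0.0070 with centring and 0.26 with array weights. MYOG was at -0.086 with quantile normalization. When 1 array was left out, SCN3A ran from -0.072 to 0.23, SCN4A from -0.45 to 0.027, SCN9A from -0.0031 to 0.084, SCN11A from -0.087 to 0.083, SCN3B from -0.32 to 0.0064, SCNN1G from -0.26 to 0.032, KCNJ11 from -0.15 to 0.28, NGFR from -0.27 to 0.10, MYOG from -0.17 to 0.20 and XIRP2 from -0.042 to 0.20. The causes were not tested.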
